A study of Mus musculus with 13 samples.

Results

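The H3K27ac landscape of reprogramming cultures at day 13 with HDAC3-YF was set against that of embryonic stem cells (ESCs), the cell state that reprogramming aims at. The members were the deposited H3K27ac peaks of these libraries, 14251 in the day 13 HDAC3-YF culture and 25499 in ESCs, together 39750 of the 164043 peaks in the 12 peak lists of the series. The day 13 HDAC3-YF culture was made from mouse embryonic fibroblasts (MEFs) of the strain C57BL/6J-OG2, transduced with the 4 Yamanaka factors OSKM (genes Pou5f1, Sox2, Klf4 and Myc) together with a plasmid for HDAC3-Y298F, a form of the histone deacetylase HDAC3 that lacks enzyme activity. The OG2 strain carries a GFP reporter driven by Pou5f1 sequence. The labels presume its cells to be intermediate in reprogramming, and it was kept in serum or KSR medium with LIF. The day 13 FLAG culture had the same strain, factors and day with a FLAG control in place of HDAC3-YF, and HDAC3-YF cultures of the same kind were also sampled at days 5 and 9. The ESCs were C57BL/6J cells without treatment, kept in N2B27 medium with LIF, CHIR99021 and PD0325901, and the untreated MEFs were C57BL/6J-OG2 fibroblasts, both labelled day 0. Strain and medium therefore differed between the day 13 cultures and ESCs along with the cell state and cannot be told apart from it.

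H3K27ac, the acetylation of lysine 27 of histone H3, lies at active promoters and active enhancers, and nucleosomes at silent genes carry little of it. HDAC3 removes histone acetylation and needs the co-repressors NCoR or SMRT for its activity, so a catalytically dead form can take its place in these complexes without deacetylating. In reprogramming, the fibroblast programme is shut down first, epithelial junction genes come on with a mesenchymal-to-epithelial transition, and the self-sustaining network of naive pluripotency regulators comes on late.

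The sequences that the results turn on are of 2 kinds, microRNAs of ESC, epithelial and fibroblast identity, and promoters of pluripotency genes on either side of the day 13 comparison. All are from RefSeq (GRCm38.p6, whose coordinates are those of mm10) and read 5′ to 3′. In the mature microRNAs the seed, bases 2 to 8, is in capitals. miR-294-3p of the miR-290 cluster (chr7, plus strand) and miR-302b-3p of the miR-302 cluster (chr3, plus strand) share 1 seed, and both clusters are abundant in pluripotent cells. miR-200b-3p (chr4, minus strand) and miR-200c-3p (chr6, minus strand) share another and repress the mesenchymal factors Zeb1 and Zeb2. miR-21a-5p (chr11, minus strand) is abundant in fibroblasts.
mmu-miR-294-3p: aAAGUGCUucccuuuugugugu
mmu-miR-302b-3p: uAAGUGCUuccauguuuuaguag
mmu-miR-200b-3p: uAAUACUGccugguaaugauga
mmu-miR-200c-3p: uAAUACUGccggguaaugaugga
mmu-miR-21a-5p: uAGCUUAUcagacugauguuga

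Each promoter runs from 250 bases before to 50 after the gene start, with CG dinucleotides in capitals. In the first 3, an ESC peak without a MEF peak had a day 13 HDAC3-YF peak within 1 kb of the gene start. These were Utf1 (chr7:139943606-139943905, plus strand), Fgf4 (chr7:144861136-144861435, plus strand) and Gbx2 (chr1:89931127-89931426, minus strand). In the other 3 such an ESC peak had none, namely Nanog (chr6:122707239-122707538, plus strand), Zfp42 (chr8:43306960-43307259, minus strand) and Tfcp2l1 (chr1:118627695-118627994, plus strand).
Utf1: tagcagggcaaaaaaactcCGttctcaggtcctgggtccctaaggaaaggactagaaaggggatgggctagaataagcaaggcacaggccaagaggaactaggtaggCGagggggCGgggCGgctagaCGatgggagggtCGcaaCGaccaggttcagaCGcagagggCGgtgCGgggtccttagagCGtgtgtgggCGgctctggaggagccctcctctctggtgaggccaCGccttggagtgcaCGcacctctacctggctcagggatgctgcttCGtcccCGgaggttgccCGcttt
Fgf4: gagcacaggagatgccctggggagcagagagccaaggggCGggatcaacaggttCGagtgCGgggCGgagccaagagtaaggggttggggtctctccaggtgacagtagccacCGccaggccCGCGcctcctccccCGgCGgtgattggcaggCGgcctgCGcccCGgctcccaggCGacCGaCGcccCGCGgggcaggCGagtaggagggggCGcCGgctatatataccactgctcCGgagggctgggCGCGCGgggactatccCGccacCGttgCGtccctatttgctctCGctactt
Gbx2: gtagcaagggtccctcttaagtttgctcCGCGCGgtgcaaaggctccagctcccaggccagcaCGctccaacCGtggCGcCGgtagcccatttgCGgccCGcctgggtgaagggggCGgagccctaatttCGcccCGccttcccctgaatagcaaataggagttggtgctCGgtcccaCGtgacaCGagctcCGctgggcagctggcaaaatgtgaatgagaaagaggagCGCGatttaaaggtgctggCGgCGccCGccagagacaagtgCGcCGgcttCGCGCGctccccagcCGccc
Nanog: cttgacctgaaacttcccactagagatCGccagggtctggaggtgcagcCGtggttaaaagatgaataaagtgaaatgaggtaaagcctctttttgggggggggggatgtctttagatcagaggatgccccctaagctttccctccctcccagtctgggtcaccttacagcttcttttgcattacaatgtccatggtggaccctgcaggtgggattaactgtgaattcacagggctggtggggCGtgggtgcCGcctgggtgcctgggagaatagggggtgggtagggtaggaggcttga
Zfp42: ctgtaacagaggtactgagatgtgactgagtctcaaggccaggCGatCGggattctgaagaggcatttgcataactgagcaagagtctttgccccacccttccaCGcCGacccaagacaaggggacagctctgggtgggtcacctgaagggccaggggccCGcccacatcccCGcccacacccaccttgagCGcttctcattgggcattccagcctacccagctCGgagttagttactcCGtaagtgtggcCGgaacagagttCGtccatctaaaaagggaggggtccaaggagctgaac
Tfcp2l1: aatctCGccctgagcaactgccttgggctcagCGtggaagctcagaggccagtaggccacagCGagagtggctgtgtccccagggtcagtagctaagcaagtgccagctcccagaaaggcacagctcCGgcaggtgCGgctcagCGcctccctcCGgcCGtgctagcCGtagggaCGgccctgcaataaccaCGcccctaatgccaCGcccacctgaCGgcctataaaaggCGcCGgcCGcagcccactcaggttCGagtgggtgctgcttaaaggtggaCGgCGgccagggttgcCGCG
The promoters with a day 13 HDAC3-YF peak held 17 (Utf1), 28 (Fgf4) and 27 (Gbx2) CG dinucleotides, against 4 (Nanog), 11 (Zfp42) and 21 (Tfcp2l1) in those without, so the groups overlapped.

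Each library was the only one of its group, so no value has a replicate error and no test between cultures was made. Every deposited interval is 200 bp wide and the read depth is unknown. The lists held 14251 to 16944 peaks in the 6 OSKM cultures, fewer than the 25499 in ESCs and 26591 in MEFs. The deposited score runs to a ceiling of 200, and 2.11% of the day 13 HDAC3-YF peaks sat at it, against 1.67% with FLAG at day 13 and 24.4% in ESCs. Defining markers set the cell types apart. Of 15 naive pluripotency regulators 5 had an H3K27ac peak within 1 kb of the gene start in the day 13 HDAC3-YF culture, 11 in ESCs and 4 in MEFs. Of 30 fibroblast genes 11 did in the day 13 HDAC3-YF culture, 9 in ESCs and 25 in MEFs. Over all 21883 protein-coding genes the counts were 10193 (46.6%), 11184 and 11216 in the same order. In a culture of many cells, fewer cells with acetylation at a site and less acetylation per cell cannot be told apart, and both can keep a site out of a peak list. Shares below carry 95% Wilson intervals, which cover counting error over regions only and not the spread between cultures.

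At day 13 the HDAC3-YF culture held mainly the part of the ESC landscape that fibroblasts have already. Of the 25499 ESC peaks, 9031 or 35.4% (34.8 to 36.0) were overlapped by a day 13 HDAC3-YF peak by at least 1 bp. For the 9529 ESC peaks that overlap a MEF peak the share was 76.0% (75.2 to 76.9), with 15.3% of them more than 1 kb from any day 13 HDAC3-YF peak. For the 15970 ESC peaks without an overlapping MEF peak the share was 11.2% (10.7 to 11.7), or 1785 peaks, and 13079 (81.9%) had no day 13 HDAC3-YF peak within 1 kb. The day 13 FLAG culture overlapped 73.4% of the first set and 8.41% of the second.

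Single 200 bp intervals can mark different points of 1 acetylated domain in different libraries, which affects which peaks count as specific to ESCs. Of the 1785 ESC peaks just named, 927 (51.9%) had a MEF peak within 1 kb that they did not overlap, against 10.9% of the 14185 that were not overlapped at day 13. Only 1.23% of the ESC peaks without an overlapping MEF peak lay 1 to 2.5 kb from the nearest day 13 HDAC3-YF peak, while 62.5% lay more than 10 kb away. The comparison was therefore also made with ESC peaks that have no MEF peak within 1 kb, a choice made after the values were seen. Of these 13493 ESC-specific peaks, 1287 or 9.54% (9.05 to 10.0) had a day 13 HDAC3-YF peak within 1 kb, against 999 or 7.40% (6.97 to 7.86) for day 13 FLAG. With a score of at least 10 required of the day 13 HDAC3-YF peaks the share was 4.34%, so most of the reached peaks rested on day 13 peaks with a score under 10. With the 14251 highest-scoring peaks of each list the share was 21.5%, or 1213 of 5647. This setting shortens both the ESC and the MEF list, so ESC peaks near a dropped MEF peak can enter the class.

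Gene starts were reached far more often than sites elsewhere. Of the 1231 ESC-specific peaks within 1 kb of the start of a protein-coding gene, 477 or 38.7% (36.1 to 41.5) had a day 13 HDAC3-YF peak within 1 kb. Of the 12262 elsewhere, where most enhancers lie, 810 or 6.61% (6.18 to 7.06) did. In the day 13 FLAG culture the shares were 21.7% (19.5 to 24.1) at gene starts and 5.97% (5.56 to 6.40) elsewhere. The intervals of the day 13 cultures lay apart at gene starts and overlapped elsewhere. Both cultures were scored over the same ESC peaks, so separate intervals do not gauge their difference, which was not tested. Counted by gene, 1177 genes had a peak at the start in ESCs and none in MEFs. A day 13 HDAC3-YF peak lay at 491 of them (41.7%, 38.9 to 44.6) and a day 13 FLAG peak at 279 (23.7%, 21.4 to 26.2). Where both ESCs and MEFs had a peak at the start, as at 10007 genes, 89.5% had one in the day 13 HDAC3-YF culture and 88.3% with FLAG.

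**Figure D1:**
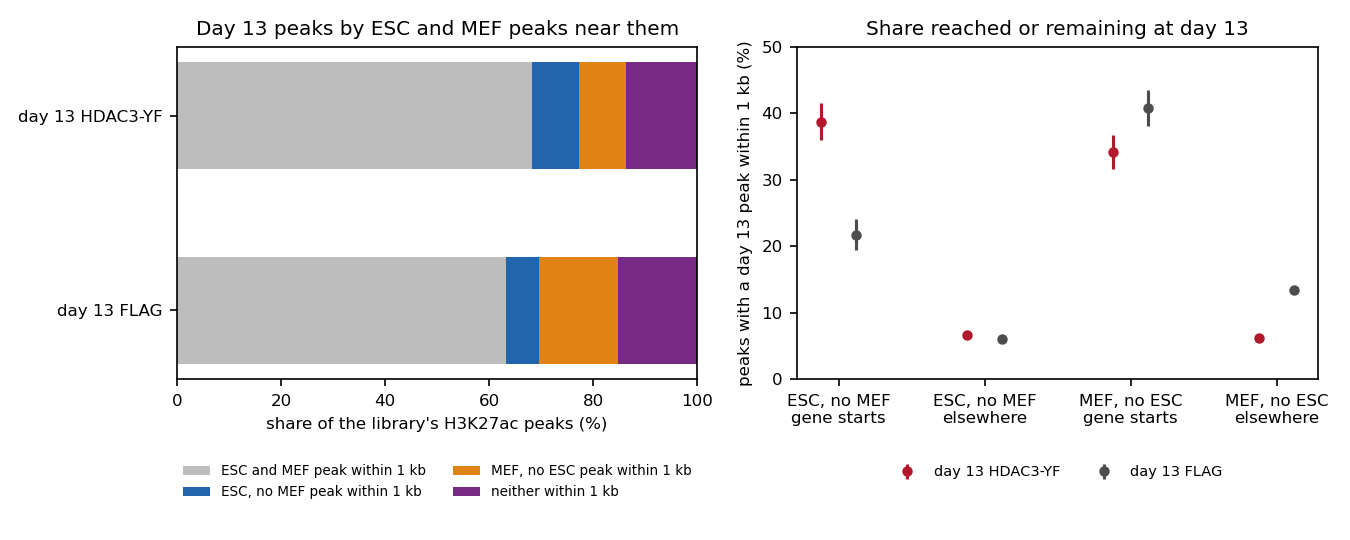
Left, peaks of the day 13 HDAC3-YF and day 13 FLAG libraries by the ESC and MEF peaks within 1 kb of them, as a share of each library's peaks. Right, share of ESC peaks without a MEF peak within 1 kb and of MEF peaks without an ESC peak within 1 kb that had a day 13 peak within 1 kb, at gene starts and elsewhere, with 95% Wilson intervals over regions (1 library per culture). The HDAC3-YF point lies above the FLAG point at ESC-specific gene starts (38.7% and 21.7%) and below it at MEF-specific sites elsewhere (6.19% and 13.4%).

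ESC peaks of the highest score were reached more often than those of the lowest at both kinds of site. At gene starts the share of ESC-specific peaks with a day 13 HDAC3-YF peak within 1 kb was 24.0% (19.4 to 29.4) for ESC scores under 10 and 67.9% (58.7 to 75.8) for scores at the ceiling of 200. Elsewhere it was 4.26% (3.66 to 4.97) and 20.1% (17.1 to 23.5). An ESC-specific peak of the highest score away from a gene start was thus reached about as often as the weakest ESC-specific peak at one, with overlapping intervals.

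**Figure D2:**
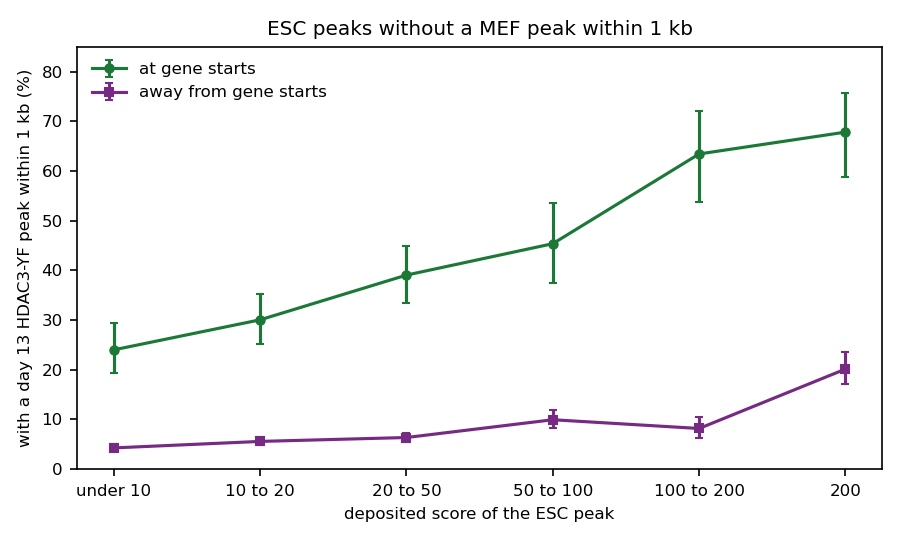
Share of ESC H3K27ac peaks without a MEF peak within 1 kb that had a day 13 HDAC3-YF peak within 1 kb, by the deposited ESC score, at gene starts and elsewhere, with 95% Wilson intervals over regions. The share is higher at gene starts in each of the score classes, from 24.0% to 67.9%, against 4.26% to 20.1% elsewhere.

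Most ESC-specific peaks reached at day 13 had no peak nearby at day 5, and most had none at day 9. Of the 1287 peaks, 353 (27.4%) also had a day 5 HDAC3-YF peak within 1 kb, 436 (33.9%) a day 9 HDAC3-YF peak and 531 (41.3%) a day 13 FLAG peak. No peak in any of the other 5 OSKM libraries was near 533 (41.4%), and 162 (12.6%) had one in all 5. Seen from the earlier days, 37.7% of the 1155 ESC-specific peaks reached at day 9 and 29.4% of the 1202 reached at day 5 were still reached at day 13. With HDAC3-YF, days 5, 9 and 13 reached 8.91%, 8.56% and 9.54% of the ESC-specific peaks. How much of the change in membership is spread between libraries was not tested, since no culture was sampled more than once.

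The 5 overlapped ESC-specific peaks with the highest day 13 HDAC3-YF scores, a class made after values were seen, were all at the ESC ceiling of 200. For each, the score of the overlapping day 13 HDAC3-YF peak and that of any day 13 FLAG peak with its centre within 1 kb are given. The first lay inside Pou5f1, with 200 for HDAC3-YF and 200 for FLAG, a gene that was also introduced. In Aida the scores were 90.3 with HDAC3-YF and 122 with FLAG. At the start of Cecr2, which encodes a subunit of a chromatin remodeller, the score was 82.1 with HDAC3-YF, with no FLAG peak at any day and one of 16.1 with HDAC3-YF at day 9. At the start of Fam169a the scores were 67.0 with HDAC3-YF and 18.6 with FLAG, and at a site 16482 bp from the start of Psme4, which encodes a proteasome activator, they were 59.6 and 50.9 in the same order. Of the 12 highest such peaks, 10 had a day 13 FLAG peak within 1 kb, and at 5 of them the FLAG score was the higher one.

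Gene loci were scored over the gene body and 20 kb on each side, and peaks in such a window can belong to a neighbouring gene. A locus is called reached where at least 50% of its ESC peaks were overlapped by a day 13 HDAC3-YF peak, and absent where none was. Of the 14881 protein-coding loci with an ESC peak, 8739 (58.7%) were reached and 3214 (21.6%) were absent. Of the 3686 loci with at least 4 ESC peaks, 1345 (36.5%, 34.9 to 38.1) were reached, 1929 (52.3%) were partly reached and 412 (11.2%, 10.2 to 12.2) were absent. With day 13 FLAG 1209 (32.8%) were reached and 561 (15.2%) were absent. All ESC peaks were overlapped at 55 of these loci. Among the 118 with no MEF peak in the window, 3 were reached, 30 were partly reached and 85 (72.0%) were absent.

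The loci with the most ESC peaks and no day 13 HDAC3-YF peak at all were Scn3a (a neuronal sodium channel) and Adam32 with 11 ESC peaks each. Epha4 (an ephrin receptor), Morc1 (a germ-cell silencing factor) and Grik3 (a glutamate receptor) followed with 10 each, and Tfcp2l1, Casr, Mypn and Cdyl2 with 9. Foxd3, a transcription factor of pluripotent cells, had 8. The loci at the other end were those with the most overlapped ESC peaks that lacked an overlapping MEF peak. Mcts2 had 4 such peaks, and so had Vasp, an actin regulator with 8 ESC peaks. Ptms, Mcl1 (a survival factor of the BCL2 family), Bcl2l12, Best2, Pi16, Gid8, Nelfb (a subunit of a transcription pausing factor) and the plakophilin gene Pkp3 had 3 each. Pkp3 was the only one of these 10 without a MEF peak in its window, and 2 of its 4 ESC peaks were overlapped with FLAG as well.

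The naive pluripotency regulators were mostly still without ESC acetylation at day 13. The 15 genes held 69 ESC peaks, of which 6 (8.70%, 4.05 to 17.7) were overlapped with HDAC3-YF and 4 (5.80%) with FLAG. Over all protein-coding loci 40.1% and 36.8% of the 21876 ESC peaks were, but these include many peaks shared with MEFs. Of the 69 peaks, 64 lacked an overlapping MEF peak. Of these 64, 3 (4.69%, 1.61 to 12.9) were overlapped with HDAC3-YF, against 13.1% of such peaks of all loci. Esrrb, a nuclear receptor of the naive network, had 11 ESC peaks. One of them was overlapped at day 13 with HDAC3-YF, 34.8 kb into the gene and with a score of 8.26 against 26.4 in ESCs, and the 3 Esrrb peaks at the ESC ceiling of 200 were not. No FLAG or MEF peak lay in the window. Tfcp2l1, a factor that sustains naive self-renewal, had 9 ESC peaks and no peak in the day 13 HDAC3-YF, day 13 FLAG or MEF library.

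Nanog shows a reached site that was not specific to ESCs. Its 5 ESC peaks lay from 17.1 kb before to 8.5 kb after the start. The peak 4.5 kb upstream was present in the day 13 HDAC3-YF culture with a score of 19.7, with FLAG with 39.6, in ESCs with 200 and in MEFs with 90.8. The ESC peak at the promoter printed above, with a score of 142, had no peak within 1 kb in any OSKM library. Zfp42 (REX1, a marker of naive cells), Nr0b1 (DAX1) and Prdm14, a repressor of differentiation, had no day 13 HDAC3-YF or FLAG peak at the start. In ESCs the start scores were 200 for Zfp42 and Nr0b1 and 17.1 for Prdm14. Nr5a2, a nuclear receptor, had no start peak with HDAC3-YF and one of 7.08 with FLAG, against 200 in ESCs. Gbx2, a homeobox factor of the LIF pathway, was the exception among the 7 naive regulators with a start peak in ESCs and none in MEFs. Its day 13 HDAC3-YF peak had a score of 9.97, against 200 in ESCs, and no other OSKM library had one. Klf2, Klf5, Tbx3 and Stat3, whose starts carry a peak in MEFs too, all had a day 13 HDAC3-YF peak there.

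The 18 late pluripotency effectors had a start peak at 12 genes with HDAC3-YF at day 13, 9 with FLAG, 13 in ESCs and 7 in MEFs. Over all protein-coding genes 46.6% had one with HDAC3-YF at day 13 and 45.1% with FLAG. Of the 82 ESC peaks of the late effectors 15 (18.3%, 11.4 to 28.0) were overlapped with HDAC3-YF and 11 (13.4%) with FLAG. Of the 70 without an overlapping MEF peak, 7 (10.0%, 4.93 to 19.2) were overlapped with HDAC3-YF. That interval includes the 13.1% of such peaks of all loci. Among the 6 genes with a start peak in ESCs and none in MEFs, Utf1, Fgf4, Epcam and L1td1 had a day 13 HDAC3-YF peak at the start, and Dppa2 and Dppa4, a pair of adjacent chromatin factors, did not. Over all genes of this kind the share with a day 13 HDAC3-YF peak was 41.7%. At Utf1, a chromatin protein of pluripotent cells, the score was 22.8 in the day 13 HDAC3-YF culture and 9.54 at day 9, against 95.9 in ESCs, and none of the 3 FLAG libraries had a start peak. At Fgf4, a growth factor of pluripotent cells, the scores were 33.4 in the day 13 HDAC3-YF culture and 9.36 with FLAG, against 200 in ESCs. Fgf4 also had 4 ESC peaks further along the locus, from 4.0 kb before to 11.5 kb after its start, none of which had a day 13 peak. At Lin28a, an RNA-binding protein of pluripotent cells, the day 13 HDAC3-YF library had a start peak of 6.96 that ESCs, MEFs and the other OSKM libraries lacked. At Tdgf1, a Nodal co-receptor, its start peak of 8.98 lay 404 bp from an ESC peak of 200 that falls just outside the 1 kb limit, and FLAG had none. Tet2, which oxidises methylated DNA, had 0 of 10 ESC peaks overlapped, Tet1 2 of 9, Jarid2 1 of 11, Mybl2 1 of 10 and Trim28 3 of 8.

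**Figure D3:**
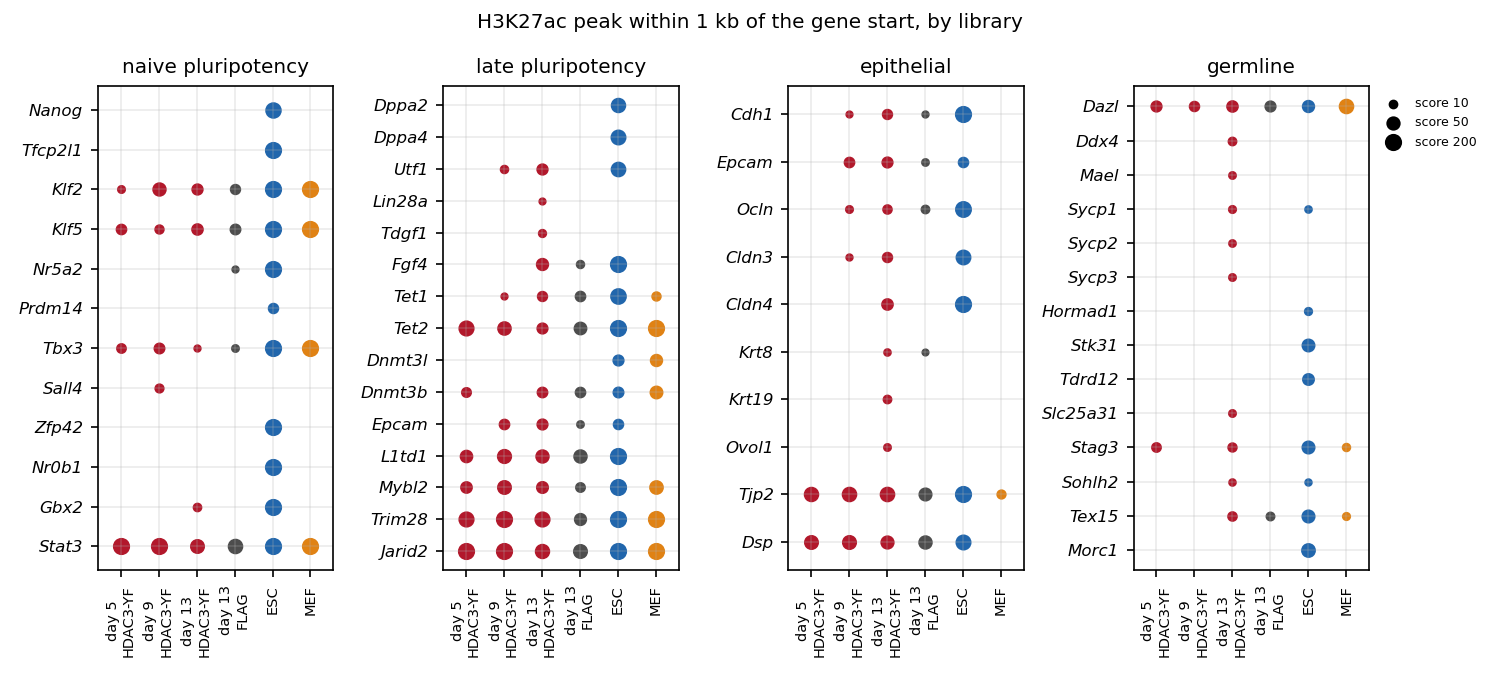
H3K27ac peaks within 1 kb of the gene start in the HDAC3-YF libraries of days 5, 9 and 13, the day 13 FLAG library, ESCs and MEFs (1 library each), for the listed genes reported here with such a peak in any of the 6. Marker area grows with the log of the deposited score. Naive regulators such as Nanog, Tfcp2l1 and Zfp42 have ESC peaks only, epithelial genes such as Cldn3 and Cldn4 have a day 13 HDAC3-YF peak as well, and 7 germline genes have an OSKM peak in the day 13 HDAC3-YF column only.

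Epithelial genes had day 13 HDAC3-YF peaks at most of the starts that are acetylated in ESCs. Of 20 epithelial genes 10 had a start peak in the day 13 HDAC3-YF culture, 6 with FLAG, 8 in ESCs and 1 in MEFs, and at days 5 and 9 with HDAC3-YF 2 and 6 did. The 10 of 20 was near the share over all protein-coding genes, 46.6% with HDAC3-YF at day 13, against 45.1% with FLAG. Of the 7 epithelial genes with a start peak in ESCs and none in MEFs, 6 had one with HDAC3-YF at day 13, against 41.7% over all such genes. Cdh1, the adherens junction protein E-cadherin, had a score of 16.5 with HDAC3-YF at day 13 and 7.13 with FLAG, against 200 in ESCs, at its annotated ends. Cldn4, a tight junction claudin, had 26.4 with HDAC3-YF at day 13 against 200 in ESCs, and no peak in the other 5 OSKM libraries. Cldn3, another claudin, had 16.9 with HDAC3-YF at day 13 against 104 in ESCs, with none in FLAG at day 13 and low peaks of 9.32 and 8.83 with FLAG at days 9 and 5. Ocln, the junction protein occludin, had 12.9 with HDAC3-YF and 10.4 with FLAG, against 178 in ESCs. Epcam, an adhesion molecule, had 22.1 with HDAC3-YF and 8.01 with FLAG, against 17.5 in ESCs. The desmosomal gene Dsp had 49.4 with HDAC3-YF and 54.7 with FLAG, against 112 in ESCs.

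Over their whole windows, starts included, the epithelial loci were less complete than at the starts. Of 59 ESC peaks 23 (39.0%, 27.6 to 51.7) were overlapped with HDAC3-YF, close to the 40.1% of all loci, and 15 (25.4%) with FLAG. Of the 42 that lacked an overlapping MEF peak, 10 (23.8%, 13.5 to 38.5) were overlapped with HDAC3-YF. That interval lies above the 13.1% of such peaks of all loci. Cdh1 had 12 ESC peaks, of which 3 were overlapped and 1 more had a day 13 HDAC3-YF peak within 1 kb. Cldn3 had 2 of 4 overlapped, at its start and 14.7 kb downstream, where the day 13 HDAC3-YF score was 11.0, against 46.9 in ESCs. Cldn4 had 1 of 6 overlapped and 3 within 1 kb. The keratin genes Krt8 (7.63) and Krt19 (10.3) and the epithelial repressor Ovol1 (8.22) had a day 13 HDAC3-YF start peak where neither ESCs nor MEFs had one, and of these Krt8 had one with FLAG too (6.84) and peaks nearby in all other OSKM libraries.

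**Figure D4:**
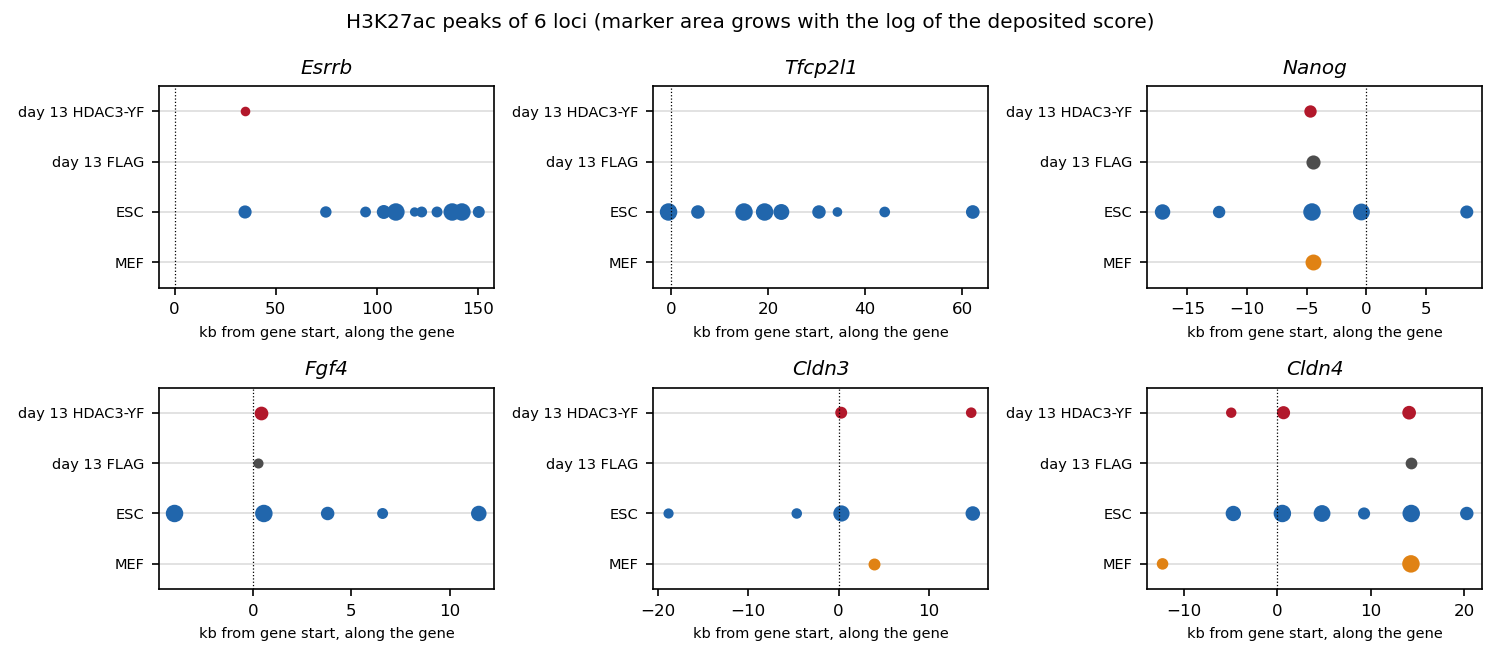
H3K27ac peaks of day 13 HDAC3-YF, day 13 FLAG, ESC and MEF libraries (1 each) at 6 loci, placed by distance from the gene start in kb. Marker area grows with the log of the deposited score. Day 13 HDAC3-YF has 1 of the 11 ESC peaks of Esrrb, none of the 9 of Tfcp2l1, and peaks at the starts of Fgf4, Cldn3 and Cldn4.

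The microRNA clusters whose sequences are given above, chosen after values were seen, were counted over their hairpins and 20 kb on each side. At the miR-290 cluster the day 13 HDAC3-YF culture had 3 peaks, against 1 with FLAG, 7 in ESCs and none in MEFs. Of the 7 ESC peaks 3 had a day 13 HDAC3-YF peak within 1 kb and 1 was overlapped. The HDAC3-YF cultures had 1 peak there at day 5 and 4 at day 9. At the miR-302 cluster, with the same seed, 1 of 4 ESC peaks was overlapped with HDAC3-YF, and MEFs had a single peak too. Both miR-200 clusters had day 13 HDAC3-YF peaks. At the miR-200c cluster there were 3, against 1 with FLAG, 3 in ESCs and 2 in MEFs. At the miR-200b cluster there was 1 with HDAC3-YF, 1 with FLAG, 1 in ESCs and none in MEFs. At miR-21 the day 13 HDAC3-YF culture had 2 peaks, as had FLAG, against 9 in MEFs and none in ESCs.

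Among signalling genes of pluripotent cells, receptors of LIF had start peaks in the culture and Nodal had none. The 14 genes of LIF, BMP and Nodal signalling held 37 ESC peaks, and 9 (24.3%, 13.4 to 40.1) were overlapped with HDAC3-YF and 10 with FLAG. Over all loci 40.1% were with HDAC3-YF, a share that includes peaks shared with MEFs. Of the 27 peaks of the list without an overlapping MEF peak, 2 (7.41%, 2.06 to 23.4) were overlapped with HDAC3-YF. That interval includes the 13.1% of such peaks of all loci. Lifr and Il6st, the receptor chains for LIF, had a start peak in the day 13 HDAC3-YF culture, in ESCs and in MEFs, with scores of 15.5 and 62.0 in the culture, against 200 for both in ESCs. Nodal, a TGF-beta family ligand, had 5 ESC peaks and no peak in the day 13 HDAC3-YF, FLAG or MEF library. Lefty2, which inhibits Nodal, had no start peak in the day 13 HDAC3-YF culture, against one of 10.7 in ESCs. The subunit genes Ncor1 and Tbl1xr1 of the co-repressor complex had 12 ESC peaks each, and 1 of each was overlapped.

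**Figure D5:**
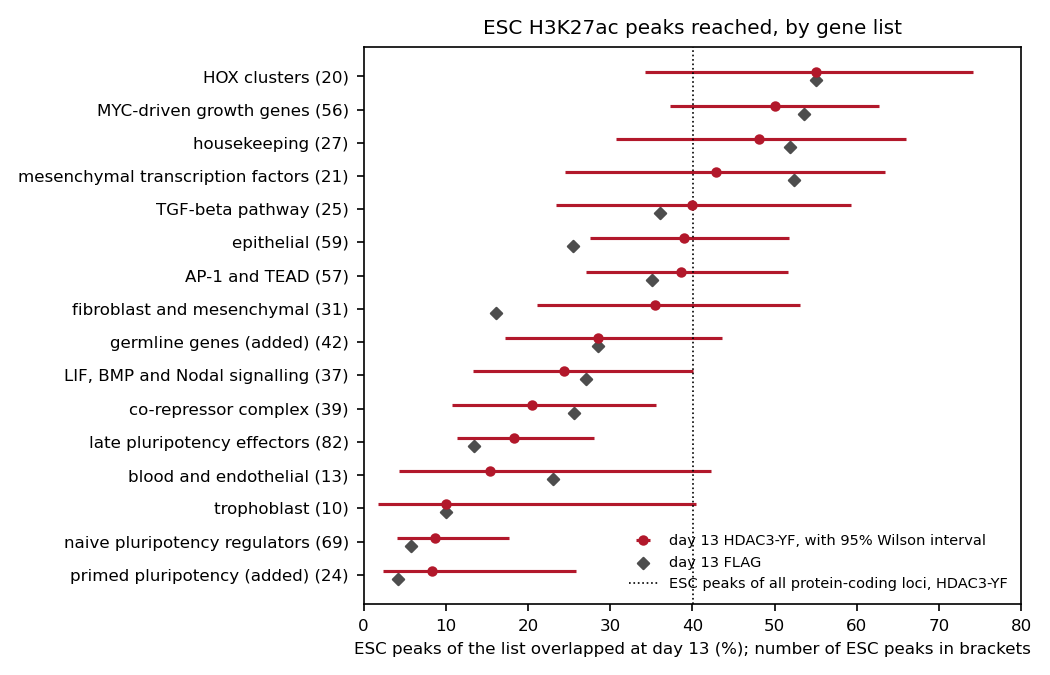
Share of the ESC H3K27ac peaks in the windows of the gene lists shown that were overlapped by a day 13 peak. Values are given for the HDAC3-YF library, with 95% Wilson intervals over peaks, and for the FLAG library. The number of ESC peaks is in brackets. The reprogramming factor, neural, skin and primitive endoderm lists are not drawn, the last with 57.1% of 7 ESC peaks overlapped with HDAC3-YF and 0 with FLAG. The dotted line marks 40.1%, the HDAC3-YF share over all protein-coding loci, which includes ESC peaks shared with MEFs. Naive regulators (8.70%) and late pluripotency effectors (18.3%) lie left of it with their whole intervals. For ESC peaks without an overlapping MEF peak, not drawn, the shares were 4.69% (naive), 10.0% (late) and 13.1% (all loci). There the interval of the late effectors includes the share of all loci.

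The peaks of the day 13 HDAC3-YF culture that ESCs lack were of 2 kinds. Without an overlapping ESC peak were 5220 of the 14251, or 36.6% (35.8 to 37.4), against 45.9% of the day 13 FLAG peaks. With no ESC peak within 1 kb there were 3236 (22.7%). Of all day 13 HDAC3-YF peaks, 1293 (9.07%) had a MEF peak but no ESC peak within 1 kb, against 2338 (15.2%) with FLAG, and 1943 (13.6%) had neither, against 2332 (15.1%) with FLAG.

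MEF acetylation remained at few of the sites that ESCs lack, and at a smaller share away from gene starts than at them. Of the 17062 MEF peaks without an overlapping ESC peak, 1691 or 9.91% (9.47 to 10.4) were overlapped with HDAC3-YF at day 13 and 14.1% with FLAG. Of the 13313 MEF peaks with no ESC peak within 1 kb that lay away from gene starts, 6.19% (5.79 to 6.61) had a day 13 HDAC3-YF peak within 1 kb and 13.4% (12.8 to 14.0) a day 13 FLAG peak. In the HDAC3-YF cultures the share was 11.7% at day 5 and 11.6% at day 9, both above the day 13 value. At gene starts 34.1% (31.6 to 36.8) of 1283 such peaks had a day 13 HDAC3-YF peak and 40.8% (38.1 to 43.5) a day 13 FLAG peak. There the HDAC3-YF shares ran the other way, with 29.5% at day 5 and 31.6% at day 9. With the 14251 highest-scoring peaks of each list, 25.2% of MEF peaks without an overlapping ESC peak were overlapped at day 13 with HDAC3-YF. Of those with no ESC peak within 1 kb, 28.3% had a day 13 HDAC3-YF peak within 1 kb. This setting shortens both the MEF and the ESC list, so MEF peaks near a dropped ESC peak can enter these classes.

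Genes of fibroblast identity held few of their MEF peaks. The 30 fibroblast and mesenchymal genes held 87 MEF peaks without an overlapping ESC peak, and 4 (4.60%, 1.80 to 11.2) were overlapped with HDAC3-YF, against 11.8% of the 13159 such peaks of all protein-coding loci. For the 20 mesenchymal transcription factors 5 of 83 (6.02%, 2.60 to 13.3) were overlapped, an interval that includes the 11.8% of all loci. For the 14 genes of the TGF-beta pathway 3 of 79 (3.80%, 1.30 to 10.6) were. At the starts, 4 of the 17 fibroblast genes with a MEF peak and no ESC peak had one with HDAC3-YF, namely Fbn1, Acta2, Lox and Cd44. Over all genes of this kind 430 of 1209 (35.6%) had one with HDAC3-YF at day 13 and 43.4% with FLAG. Fbn1, the matrix protein fibrillin, had a start score of 14.9 with HDAC3-YF and 63.4 with FLAG at day 13, against 200 in MEFs. Acta2, smooth muscle actin, had 6.94 with HDAC3-YF and 19.2 with FLAG, against 156 in MEFs, and Cd44 had 23.4 with HDAC3-YF and 30.8 with FLAG, against 200 in MEFs. Col1a1 (collagen) had no day 13 HDAC3-YF start peak and one of 7.78 with FLAG, against 75.8 in MEFs. In the windows, Fbn1 had 1 peak with HDAC3-YF, 2 with FLAG and 12 in MEFs, and Ltbp1, which anchors latent TGF-beta, had 1, 3 and 16 in the same order. Runx1 had 4 with HDAC3-YF, 6 with FLAG and 12 in MEFs.

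The shares were higher for AP-1 and HOX genes, the first with its whole interval above the 11.8% of all loci. Of 51 MEF peaks without an overlapping ESC peak at the 15 AP-1 and TEAD genes, 13 (25.5%, 15.5 to 38.9) were overlapped with HDAC3-YF, and of 44 at the 17 HOX genes 7 (15.9%, 7.93 to 29.4). The loci with the most such peaks remaining were led by Fosb, an AP-1 subunit, with 4 of 4, Ubtd1 with 4 of 8, Actn4 (an actin cross-linker) with 4 of 9 and Parva (a focal adhesion protein) with 4 of 17. The window of Fosb also held 3 ESC peaks, of which 2 had a day 13 HDAC3-YF peak within 1 kb. At Fos (3 of 3), Jun (1 of 1) and Ubtd1 (3 of 3) all ESC peaks had one. Not all of the day 13 peaks at these loci are thus far from ESC acetylation. The shares by list rest on 1 bp of overlap, and MEF peaks with no ESC peak within 1 kb were not counted by list.

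The 3539 day 13 HDAC3-YF peaks that overlap neither an ESC nor a MEF peak mostly had low scores. Their median was 8.70 (quartiles 7.41 and 11.4), against 16.45 over the whole library, whose lowest score was 6.72. No peak of another OSKM library overlapped 2103 of them (59.4%). At the other end, 9 of the 3539 tied at the ceiling of 200. They lay in Hnrnpu, Hnrnph3, Pou5f1, Tcf19 (which neighbours Pou5f1), Sox2, Klf4, Sart3 and Zc3h4 and near the start of Ankrd13a. All but those in Hnrnpu and Klf4 had an ESC peak 267 to 890 bp away. For the Hnrnpu peak, which all 6 OSKM libraries had, the lists used here hold no ESC or MEF peak nearby, and whether they are complete there is not known. A peak in Myc, named after its values were seen, had a score of 179. The bodies of all 4 introduced genes thus held a strong day 13 HDAC3-YF peak that overlaps no ESC or MEF peak. Within 1 kb of these peaks the highest day 13 FLAG scores were 200 (Sox2 and Klf4), 123 (Myc) and 56.9 (Pou5f1). The other Pou5f1 peak, which overlaps an ESC peak, had a FLAG score of 200 nearby. At Sox2 the culture had 2 of the 5 ESC peaks within 1 kb. At these genes acetylation of the own copy cannot be told apart from reads of the introduced copies, and at Pou5f1 also of the OG2 reporter, so they do not count here as pluripotency loci reached.

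Starts of germline genes were among those with a day 13 HDAC3-YF peak and no ESC peak. The list of 20 genes was added after earlier results were known. In the day 13 HDAC3-YF culture 10 of them had a start peak, against 2 with FLAG at day 13, 1 and 2 with HDAC3-YF at days 9 and 5, 9 in ESCs and 3 in MEFs. Over all 21883 protein-coding genes the counts were 10193 (46.6%) with HDAC3-YF at day 13, 9877 (45.1%) with FLAG, 11184 in ESCs and 11216 in MEFs. The 10 of 20 was thus near the share over all genes, and the 2 of 20 with FLAG was below it. Of the 20, 7 had a start peak in no other OSKM library and not in MEFs, and 530 of all genes (2.42%) had a day 13 HDAC3-YF start peak and none in the other 5 OSKM libraries. These 7 were the synaptonemal complex genes Sycp1, Sycp2 and Sycp3, the germ-cell helicase gene Ddx4, the piRNA factor gene Mael, the carrier gene Slc25a31 and the germ-cell factor gene Sohlh2. Their scores were low, from 7.57 (Sohlh2) to 10.4 (Ddx4), where the lowest score in the library was 6.72. ESCs had a start peak at Sycp1 (7.69) and Sohlh2 (7.31) and at none of the other 5. The germline starts of Hormad1, Stk31, Tdrd12 and Morc1, acetylated in ESCs and not in MEFs, had no day 13 HDAC3-YF peak.

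Germ layer and other lineage genes were counted as well, since a culture of mixed cells can hold such types. The 10 primitive endoderm genes held 7 ESC peaks, and 4 (57.1%) were overlapped with HDAC3-YF and none with FLAG. The interval of that share reaches 84.2% and includes the 40.1% of all loci. These were 1 each at Gata4, Gata6 and Sox17, transcription factors of this lineage, and at Lama1, a laminin chain of its basement membrane. At the start of Lama1 the score was 11.2 with HDAC3-YF, with no peak in FLAG at day 13, against 51.2 in ESCs. Gata4, Gata6 and Sox17 had no start peak in any library. Of 10 ESC peaks at trophoblast genes 1 was overlapped with HDAC3-YF and 1 with FLAG, and of 4 at neural genes 1 with HDAC3-YF and 1 with FLAG. Of 13 at blood and endothelial genes 2 were with HDAC3-YF and 3 with FLAG, and of 6 at skin genes 2 with HDAC3-YF and 3 with FLAG, so these lists rest on few peaks. Housekeeping genes had 13 of 27 ESC peaks (48.1%) overlapped with HDAC3-YF and 14 with FLAG, and MYC-driven growth genes 28 of 56 (50.0%) with HDAC3-YF and 30 with FLAG.

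Promoters reached at day 13 were richer in CG dinucleotides than those not reached, with wide overlap. Among genes with a start in the promoter table and a start peak in ESCs but not MEFs, the median number of CG dinucleotides per 100 bases was 6.33 at the 367 starts with a day 13 HDAC3-YF peak (quartiles 3.67 and 10.3), against 4.33 at the 495 starts without one (2.33 and 7.67) and 4.33 over all 17491 genes. The octamer ATTTGCAT, bound by OCT4 and other POU factors and searched on both strands, was in the promoter of 13 of the 367 (3.54%) and 11 of the 495 (2.22%), against 1.71% of all. Of the 6 promoters printed above only that of Zfp42 holds it. Other motifs went both ways between the 367 and the 495 promoters. The KLF motif GGGNGTGG was in 18.5% and 21.8%, the ESRRB motif TCAAGGTCA in 0.545% and 0.606%, and the MYC motif CACGTG in 10.4% and 8.28%. The NRF1, ETS, CCAAT box and AP-1 motifs were also less frequent at the reached starts, and the YY1 motif was more frequent. The AP-1 motif TGANTCA, on both strands, was in 5.79% of the 328 promoters with a MEF and no ESC start peak that had a day 13 HDAC3-YF peak, against 10.3% of the 571 that had none and 7.08% of all. These matches are descriptions of the letters in the window.

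Co-repressor sites marked ESC-specific peaks that were reached more often. The NCoR and SMRT peaks came from ESCs and from day 9 OSKM cultures. Of the 489 ESC-specific peaks with an ESC co-repressor site within 1 kb, 39.9% (35.6 to 44.3) had a day 13 HDAC3-YF peak within 1 kb, against 8.40% (7.93 to 8.89) of the 13004 without. Both gene starts, with 57.2% and 35.1%, and sites elsewhere, with 27.8% and 6.10%, showed the difference. For the 147 ESC-specific peaks with a day 9 co-repressor site the share was 51.0% (43.0 to 59.0), against 9.08% (8.61 to 9.58) of those without. ESC score differs between sites and was not held fixed in this comparison, and its part in the result was not tested.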

How the data were processed

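H3K27ac was mapped by ChIP-seq with 1 antibody (Abcam ab4729, per the labels), and per the submitters' processing notes reads were aligned with Bowtie2 2.2.0 and peaks called with MACS 1.4 on mm10. How regions were brought to 200 bp, the settings and the read depth are not given in the sources used here. Each interval carries a score made by the authors, as deposited, on a scale that no source states. It was used only to rank and filter peaks and to describe them. NCoR and SMRT peaks were used by position only. An input library of ESCs is listed and was not analysed here.

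Intervals were compared with Python 3.11.15, pandas 2.3.3, numpy 2.4.6 and scipy 1.17.1. They count as shared at 1 bp of overlap, and near where centres lie within 1 kb. Starts of 17491 of 21883 protein-coding genes came from a RefSeq promoter table (GRCm38.p6), which holds none of chromosome 18. The other 4392 genes were placed by both annotated ends. All 274 genes of 20 lists matched, 2 by an older symbol. Members, lists and rules were chosen with earlier results of these data known, and 2 lists (germline, primed pluripotency) and the 1 kb classes were added later. The genes named are up to 6 per list with the most ESC (or, for fibroblast lists, MEF) peaks, 10 loci per genome-wide rule and 5 single peaks per class. Other genes were taken by the state of their start. Of the epithelial list, 1 gene enters the counts and is not reported here. Overlap functions were tested on simulated data. Shares carry 95% Wilson intervals, and no test between libraries was possible.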

Additional observations from a re-analysis of the deposited data

How the results depend on the processing

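Read depth, and with it the precision of each peak list, is unknown, and a site missing from a list is below the caller's threshold, not shown to be free of acetylation. No paired analysis was possible because the day 13 HDAC3-YF culture and ESCs have 1 library each, and for the same reason no replicate could be left out. The HDAC3-YF and FLAG libraries of 3 days could be paired by day, and no model over those pairs was fitted here. Of 78 alternative values 29 stayed within the interval of the main value and 49 did not. Those that did not are given here, in the order ESC peaks reached, ESC peaks without a MEF peak reached, ESC peaks shared with MEFs reached, day 13 HDAC3-YF peaks outside ESC peaks, MEF peaks without an ESC peak remaining, loci reached and loci absent. They were 24.8%, 12.0%, 61.3%, 55.6%, 11.4%, 18.6% and 24.4% with 50% of the interval required, and 43.0%, 9.54%, 80.6%, 22.7%, 8.65%, 51.2% and 4.88% with centres within 1 kb. They were 44.4%, 11.8%, 72.1%, 20.5%, 13.8%, 38.1% and 21.4% for the top 50% of each list, and 54.4%, 21.8%, 85.7%, 45.6%, 25.2%, 55.1% and 8.83% for 14251 peaks per list. For ESC peaks without a MEF peak, 39.6% reached at gene starts became 34.1% with 50% of the interval, 28.8% for the top 50%, 49.9% for 14251 peaks per list and 36.3% with starts taken at 2.5 kb. Away from starts 5.54% became 4.23%, 3.79%, 10.1% and 4.99% in the same settings and 6.61% with centres within 1 kb. Flanks of 5 kb gave 16.2% of loci reached and 21.4% absent, and a threshold of 25% gave 69.4% reached. The pluripotency share, 13.9% in the main setting, was 8.61% with 50% of the interval and 22.5% within 1 kb. The share of ESC peaks without a MEF peak within 1 kb that were reached was 6.71% for the top 50%, 21.5% for 14251 peaks per list and 4.34% for day 13 scores of at least 10. That of MEF peaks without an ESC peak within 1 kb that remained, 8.65% in the main setting, was 10.0%, 28.3% and 3.85% in these settings and 9.14% at 2.5 kb. Merging peaks and leaving out chromosomes X and Y moved none of these values out of its interval. Peaks shared with MEFs were reached more often than the others in each of these settings. The causes of the shifts were not tested beyond the sets of peaks that each setting keeps.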

Other observations

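Primed pluripotency genes, which mark the post-implantation epiblast, were a further group, added after earlier results were known. Their 9 genes held 24 ESC peaks, of which 2 (8.33%, 2.32 to 25.8) were overlapped in the day 13 HDAC3-YF culture and 1 (4.17%) with FLAG. Of the 23 without an overlapping MEF peak, 1 (4.35%, 0.772 to 21.0) was overlapped with HDAC3-YF. That interval includes the 13.1% of such peaks of all loci. Start peaks were present at 3 of the 9 genes in the day 13 HDAC3-YF culture, at none in the 3 FLAG cultures, at 5 in ESCs and at 2 in MEFs. Over all protein-coding genes 46.6% had one in the day 13 HDAC3-YF culture and 45.1% with FLAG at day 13. At Zic2, a zinc finger factor of the epiblast, the start score was 34.2 in the day 13 HDAC3-YF culture and 14.3 at day 9, against 200 in ESCs, and its window held 4 day 13 HDAC3-YF peaks, against none with FLAG and 4 in ESCs. Fgf5, a growth factor of the primed state, had a start peak of 11.7 in the day 13 HDAC3-YF culture, none in ESCs and one of 9.27 in MEFs. Otx2 and Foxd3 had no start peak in the day 13 HDAC3-YF culture, against scores of 113 (Otx2) and 200 (Foxd3) in ESCs.

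By chromosome, the share of ESC peaks without an overlapping MEF peak that were overlapped in the day 13 HDAC3-YF culture ran up to 15.8% on chromosome 7, where 166 of 1051 were, and was 7.10% on chromosome X, where 22 of 310 were.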
